A study of Mus musculus with 24 samples.

Results

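Colon tumors of wild-type mice given azoxymethane and dextran sulfate sodium were compared with colon tissue annotated as normal from wild-type mice given the same agents. The libraries were chosen by their titles: 4 labelled WT-young tumor, 2 labelled WT-young normal and 2 labelled WT-old normal, which makes 8 of the 24 libraries of the series. All 8 carried the genotype label WT (the rest of the series carries a c-MAF knockout label, apart from 1 WT-old tumor) and the treatment label AOM/DSS, so the reference is treated colon and not untouched colon. Each group held colorectal tissue and differed from the others by tissue annotation and by the words young and old. No age, strain, dose, time after treatment or colon segment is given in the sources used here, and neither is whether libraries came from separate animals or from pooled ones. The p-values below therefore measure the spread between these libraries, which may in part be technical. The 9 KO tumors, 6 KO normals and the single WT-old tumor enter only where stated. By their titles the KO libraries were heterozygous (KO-1-hetero and KO-8-hetero) or homozygous (KO-8-homo).

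Azoxymethane is a procarcinogen that liver and colon enzymes turn into a DNA-alkylating agent, and dextran sulfate sodium erodes the epithelium and inflames the colon. Tumors in this model usually carry a stabilised beta-catenin, which keeps the Wnt pathway switched on: Wnt ligands bind Frizzled receptors, beta-catenin enters the nucleus, and with TCF factors it drives both growth genes and a set of feedback inhibitors. Normal colon epithelium is renewed from crypt base stem cells that give rise to absorptive colonocytes, mucus-making goblet cells and hormone-making enteroendocrine cells. Paneth cells, which secrete lysozyme and defensins, belong to the small intestine and are not a usual part of the mouse colon.

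Transcript levels were read as FPKM, sequenced fragments corrected for transcript length and library size. Differences are given as the mean log2(FPKM + 1) of the 4 tumors minus that of the 4 normals, a scale that understates changes of low genes. A gene was called when its limma p-value, adjusted by the Benjamini-Hochberg method over all 12782 genes tested, was below 0.05. Values of single libraries are listed in the order tumor 1 to 4, then WT-young normal 1 and 2, then WT-old normal 1 and 2. Tumors had 12332 to 12866 genes at 1 FPKM or more and normals 12233 to 12889. Relative depth, estimated from low genes, was 1.11 ± 0.147 (SD, n = 4) in tumors and 0.777 ± 0.0691 (SD, n = 4) in normals. The ranges of 0.901 to 1.23 and 0.688 to 0.853 did not overlap, and the exact permutation p (2-sided) was 0.0286, the smallest that 4 against 4 can give. Pairs of tumors correlated at 0.949 to 0.986 across genes, the WT-young normals at 0.932 and the WT-old normals at 0.959.

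Several libraries stood apart and are named before the results that rest on them. The normals numbered 1 and those numbered 2 differed in the Hox genes that mark position along the colon. Hoxb13, a marker of the distal colon, measured 36 and 8.41 FPKM in WT-young and WT-old normal 1 but 416 and 293 FPKM in the normals numbered 2, with the tumors between, at 109, 138, 157 and 199 FPKM. Hoxb6, which is used by more proximal segments, measured 10.1 and 29.2 FPKM in the normals numbered 1, 0.616 and 0.148 FPKM in those numbered 2, and 0.132 to 0.379 FPKM in the tumors. Hoxd13 gave 53.8, 50.9, 52.4 and 64.6 FPKM in the tumors, 0.902 and 0.171 FPKM in the normals numbered 1 and 62.1 and 13 FPKM in those numbered 2. In these genes the tumors were thus nearer to the normals numbered 2, and counts are given against either pair where the choice of pair moved them most. The first principal component (63.2% of variance) separated tumors from normals, with tumor 4 nearest to the normals. The second (17.5%) separated the normals by their number.

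Tumor 2 held keratins of squamous epithelium at levels not seen in the other libraries. Krt5, a basal squamous keratin, was 250 FPKM there and 0.194 to 0.493 FPKM in the other 7 libraries, and Krt14 was 579 FPKM there and 4.88 to 22.6 FPKM in the other tumors. Tumor 4 had the lowest summed fibroblast markers of the tumors (241 FPKM against 345 to 558 FPKM) and the highest summed colonocyte markers (1817 FPKM against 452 to 930 FPKM). Markers of muscle and fat were far higher in normals than in tumors. The summed smooth muscle markers Myh11, Des, Cnn1, Actg2 and Acta2 were 613 to 4975 FPKM in normals and 110 to 253 FPKM in tumors. The summed adipocyte markers were 12.1 to 91.7 FPKM in normals and 0 to 0.243 FPKM in tumors, where Plin1 and Lep were listed at 0 in all 4. The epithelial markers Epcam, Cdh1, Krt8, Krt18 and Vil1 summed to 4201 to 6977 FPKM in tumors and 3696 to 6190 FPKM in normals. These ranges overlapped, and epithelial transcripts were abundant in both tissues. Singly, Krt18 did not overlap, at 655 to 740 FPKM in tumors and 486 to 497 FPKM in normals, while each of the others did. In bulk RNA, fewer cells of a type and less RNA per cell cannot be told apart.

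Of 12782 genes tested, 4362 were called (34.1%), 2326 of them higher in tumors (18.2%) and 2036 lower (15.9%). The counts of list members given below are to be read against these shares. A gene below 1 FPKM in all libraries of one group could be tested only if it was high in the other, so such members had to differ, and their number is given for the lists where they weigh. With an age term the tumors were set against the 2 WT-young normals, and the WT-old normals added only to the spread. The reference was thus smaller, and the count over all genes fell to 2858. The members lower fell from 16 to 10 in the colonocyte list, from 12 to 4 in the goblet list and from 13 to 8 in the enteroendocrine list. They fell from 20 to 13 in fatty acid oxidation and from 18 to 10 in mitochondrial respiration. The members higher fell from 15 to 9 in the fetal-like list and from 18 to 9 in the macrophage list. A difference of at least 1 on the log2 scale was found in 798 of the higher and 681 of the lower genes. The ranges of the 2 groups did not overlap in 34.9% of genes, with 20.1% above and 14.9% below the normals. Against the normals numbered 2 alone 3515 genes were called, and against those numbered 1 alone 4417. Without tumors 2 and 4 the count fell to 2694. Scaling each library to a common sum of FPKM shifted the median of all genes by 0.28 on the log2 scale and moved the split to 4496 higher of 5659 called. The summed FPKM, 508494 to 612427 in tumors and 636236 to 684100 in normals, did not overlap either. Of the 195 genes examined singly 177 were called, none of these changed sign in up to 25 alternatives, and 140 kept the call in all of them. Most of these genes were chosen by a small p or a large change in this same comparison. Their stability was thus favoured by the choice and does not describe the called genes at large.

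The largest rises were mostly in genes with low levels in the normal tissue. Mt4, a metallothionein of stratified squamous epithelia, measured 444, 521, 467 and 526 FPKM in the tumors and 0.728, 1.43, 0.526 and 1.07 FPKM in the normals. All 4 tumors stood at one level, and the ratio of the group means was 522 (log2 difference 8.00, SE 0.15, limma adjusted p 4.78e-08). Krt36, a hair keratin, measured 191, 166, 262 and 237 FPKM against 0.279, 1.02, 0.344 and 3.6 FPKM (6.73, SE 0.39, adjusted p 2.06e-05). Spock2, an extracellular matrix proteoglycan, rose from 1.26 ± 0.324 to 146 ± 36.3 FPKM (SD, n = 4 each), and the lipase-related Pnliprp1 rose by 5.15. Saa3, an acute-phase serum amyloid, rose by 5.60 from 7.68 ± 7.2 to 358 ± 154 FPKM (SD, n = 4 each). The largest falls included genes of mature epithelium and of muscle. Cyp2c55, a colonic cytochrome P450 of a family with close paralogs, measured 6.26, 12.3, 18.3 and 120 FPKM in tumors and 768, 464, 1815 and 265 FPKM in normals (-4.89, SE 0.88, adjusted p 0.00409). Tumor 4 was the highest tumor for 1810065E05Rik, Cyp2c55, Hsd3b3, Gm1123 and Sult1a1, yet lay below every normal in each. 1810065E05Rik, at 13 to 148 FPKM in tumors and 200 to 4805 FPKM in normals, fell by 4.91 (adjusted p 0.00747).

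**Figure D1:**
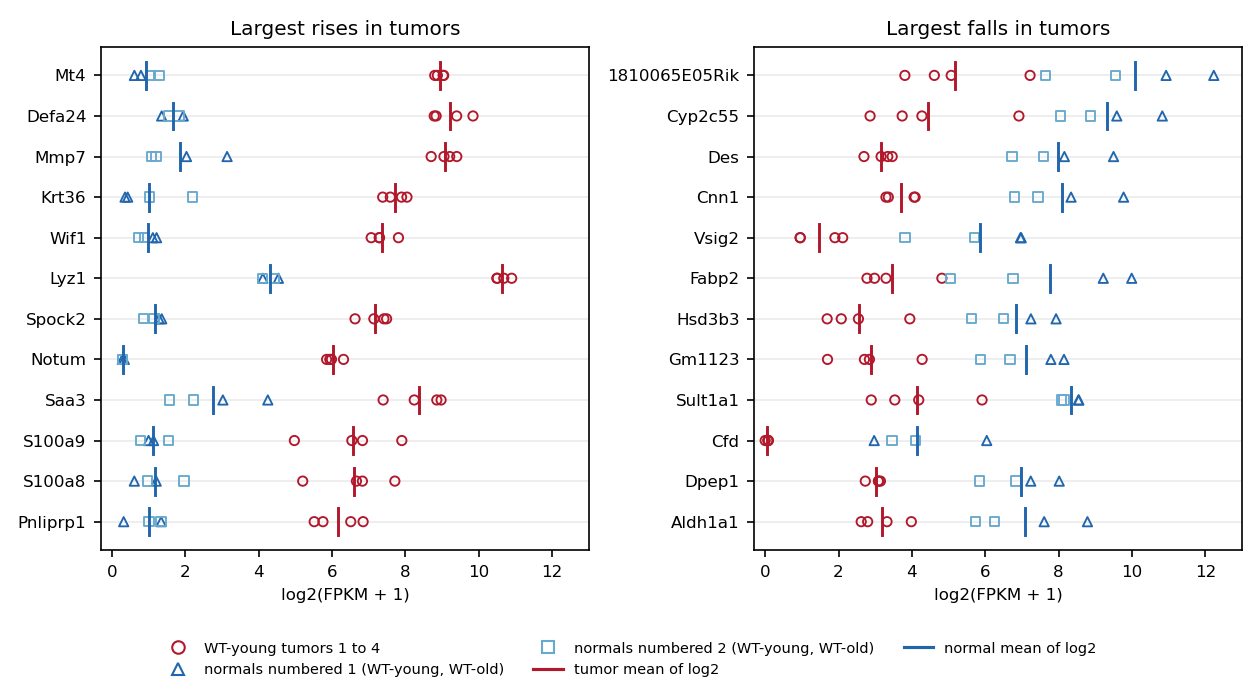
Log2(FPKM + 1) of the 12 largest rises (left) and 12 largest falls (right) among called genes whose group ranges did not overlap and whose higher group averaged at least 5 FPKM, 1 symbol per library and a vertical line at each group's mean. Every tumor lies apart from every normal in each row.

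Most of the tested feedback inhibitors of the Wnt pathway rose, several by large amounts. Of the 15 tested members of the list of Wnt antagonists and feedback genes, 10 were called higher and none lower, with a median difference of 2.32 beside 0.02 over all genes tested. The count was 10 against either pair of normals and 10 without tumors 2 and 4. Of the 15, 3 passed the filter through the tumors alone, and 7 of the other 12 were higher. Nkd2, Sfrp4, Sfrp5 and Dkk4 of the list did not pass it. Nkd2 measured 0.219 to 0.799 FPKM in tumors and 0.748 to 6.11 FPKM in normals. Sfrp4 and Sfrp5 also had their highest value in a normal, and Dkk4 was at most 0.0266 FPKM. Notum, an enzyme that strips Wnt proteins of the lipid they need for binding, measured 78.4, 56.7, 62.3 and 60.3 FPKM in tumors and 0.26, 0.211, 0.214 and 0.221 FPKM in normals. No tumor was near the normals, and the log2 difference was 5.73 (SE 0.12, limma adjusted p 4.78e-08). Wif1, a secreted protein that captures Wnt ligands, measured 223, 156, 155 and 133 FPKM against 1.16, 0.858, 1.32 and 0.658 FPKM (6.38, SE 0.18, adjusted p 2.89e-07). Apcdd1, a membrane inhibitor of the same pathway, measured 46.5 to 62.7 FPKM against 0.441 to 1.09 FPKM. Axin2, a scaffold of the complex that degrades beta-catenin and a widely used readout of the pathway, measured 46.8, 40, 44.4 and 31.9 FPKM against 5.43, 7.61, 5.79 and 7.34 FPKM. It was present in normals at a moderate level and was 6.23-fold higher in the tumor means (2.47, SE 0.15, adjusted p 2.85e-05). Nkd1 (3.74), the secreted Dkk2 (3.52), the transcription factor Sp5 (from 0.173 to 8.51 FPKM in the means) and the ubiquitin ligase Znrf3, which removes Wnt receptors (1.44), rose as well.

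Nuclear effectors and targets of the pathway rose by less. Among 19 tested, 12 were called higher and none lower, with a median of 0.85. The count was 11 higher and 2 lower against the normals numbered 2, and 12 and 0 against those numbered 1. Of the 19, 2 (Prox1 and Lef1) passed the filter through the tumors alone, and 10 of the other 17 were higher. Prox1, a homeobox factor, showed the widest gap: 29.9, 20.5, 26.9 and 23.5 FPKM in tumors against 0.72, 0.529, 0.58 and 0.309 FPKM in normals (4.09, SE 0.14, adjusted p 9.02e-07). Lef1, a TCF-family partner of beta-catenin, measured 5.28, 4.83, 4.93 and 2.89 FPKM against 0.0301, 0.499, 0.148 and 0.128 FPKM, and Tcf7, another partner, rose by 1.57. Plaur, the urokinase receptor, rose by 1.79 and Ccnd1, a G1 cyclin, by 1.18. Myc measured 19.3, 16.9, 21.2 and 17.9 FPKM in tumors and 11.2, 9.86, 11 and 16.6 FPKM in normals. That small gap (0.61, adjusted p 0.0187) lost its call without tumor 1, tumor 3 or WT-old normal 1 in turn, and against the normals numbered 2, with adjusted p between 0.0509 and 0.105. Ctnnb1, which encodes beta-catenin itself, measured 417, 384, 372 and 389 FPKM against 273, 289, 302 and 288 FPKM, a small and even rise of 0.44 (adjusted p 0.00688).

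Ligands and receptors did not move as a group: 3 of 19 tested were called higher and 2 lower, and the median was -0.08. Against the normals numbered 2 the numbers were 2 and 4, and against those numbered 1 they were 3 and 4. The ligands Wnt10a and Wnt6 were exceptions, Wnt10a at 13, 10.9, 10.1 and 6.79 FPKM in tumors against 0.0896, 0.0397, 0.155 and 0.0571 FPKM in normals, and Wnt6 at 10.2 to 15.6 FPKM against 0.313 to 0.993 FPKM. Both are canonical Wnt ligands, and they rose by 3.34 and 3.12 with adjusted p of 1.31e-05 and 2.24e-05. They were the 2 members that passed the filter through the tumors alone, so they had to differ. Of the other 17 members, 1 was higher and 2 lower. The receptor Fzd5 measured 5.4, 6.54, 6.69 and 8.96 FPKM in tumors and 11.7, 15, 22.2 and 14.2 FPKM in normals, and it fell by 1.07 (adjusted p 0.00501). Fzd8 fell by 0.84 (adjusted p 0.00127).

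Genes of crypt base stem cells split in both directions. Of 15 tested, 7 were called higher and 4 lower, with a median of 0.15. Lgr5, the R-spondin receptor that marks these cells, measured 16.2, 9.36, 11.8 and 11.5 FPKM in tumors and 1.52, 0.972, 1.92 and 0.743 FPKM in normals (2.53, SE 0.21, adjusted p 0.000132). Smoc2 (1.98) and Hopx (1.21) rose with it, with all tumors above all normals. Lrig1, an inhibitor of EGF receptor signalling found in crypt stem cells, went the other way at 12.5, 12, 15.6 and 14.6 FPKM against 32.2, 26.2, 24.3 and 29.6 FPKM (-0.98, SE 0.13, adjusted p 0.000985). Rgmb, a BMP co-receptor of the crypt base, fell by 0.93. Kit, the receptor of deep crypt secretory cells and also of pacemaker cells of the muscle layer, fell by 1.84, from 6.8 to 25.5 FPKM in normals to 3.2 to 4.17 FPKM in tumors. Muscle markers moved the same way as Kit, and their part in its fall was not tested.

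**Figure D2:**
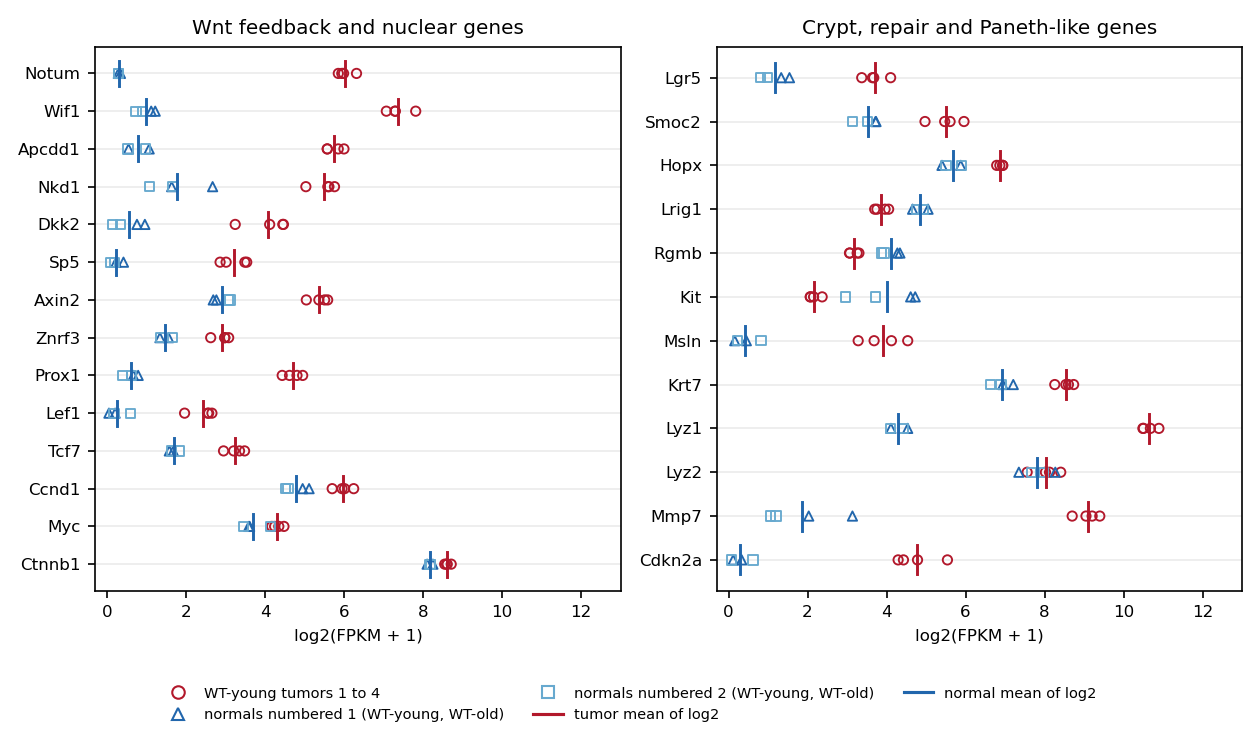
Log2(FPKM + 1) in each library for Wnt feedback and nuclear genes (left) and for crypt, repair and Paneth-like genes (right), with a line at each group's mean. Feedback genes from Notum to Znrf3 show tumors apart from all normals, Ctnnb1 shows a small shift, Lrig1, Rgmb and Kit lie lower in tumors, and Lyz2 overlaps where Lyz1 does not.

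The core of the TCF recognition sequence was looked for in the promoters of the Wnt genes that were called higher. Of the 22 called genes of the antagonist and nuclear lists, 15 had RefSeq promoter windows (GRCm38.p6, 250 bases before to 50 after a start, 23 windows). The letters CTTTGA, on either strand, occurred in 3 of the 23 windows (13%) and in 16% of all 32851 windows, a share no higher than in promoters at large. The 3 genes with a match were Lef1, Tnfrsf19 and Sp5. The upstream stretch of Sp5, chr2:70474673-70474922 on the plus strand, is shown as an example chosen after its matches were seen, with the 2 matches in capitals, beginning 204 and 104 bases before the start.
Sp5: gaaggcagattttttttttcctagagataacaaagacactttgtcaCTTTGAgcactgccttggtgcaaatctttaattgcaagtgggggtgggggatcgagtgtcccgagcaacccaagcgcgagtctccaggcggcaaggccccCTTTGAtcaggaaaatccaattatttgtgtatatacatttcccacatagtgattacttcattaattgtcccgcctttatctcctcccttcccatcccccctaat
A match is a description of letters, not a site.

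Genes of the fetal-like state that injured colon epithelium enters during repair were higher nearly throughout. Of 17 tested, 15 were called higher and none lower, with a median of 1.61, and 12 and 13 were called against the normals numbered 2 and 1. Without tumors 2 and 4 the number was 10. Of the 17, 2 passed the filter through the tumors alone, and 13 of the other 15 were higher. Msln, mesothelin, measured 22.2, 16.4, 11.9 and 8.73 FPKM against 0.116 to 0.771 FPKM. It was high in tumor 1 and lowest in tumor 4, with every tumor above every normal. Krt7, a simple-epithelial keratin, rose by 1.61.

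Antimicrobial genes of the Paneth cell type were among the most abundant transcripts gained. Of the 18 tested members of the Paneth-like and antimicrobial list, 10 were called higher and 2 lower, with a median of 4.11. In 3 of the 18 the filter was passed through the tumors alone and in 1 through the normals alone, and of the other 14 members 7 were higher and 1 lower. Of the 22 genes on the list, Defa3, Reg1, Reg2 and Reg3a did not pass the filter. Lyz1, the lysozyme of Paneth cells, measured 1453, 1904, 1438 and 1641 FPKM in tumors and 22.2, 20.6, 16.3 and 16.1 FPKM in normals, an 85.6-fold ratio of means (6.35, SE 0.15, adjusted p 9.09e-08). Lyz2, the neighbouring lysozyme gene used by macrophages, measured 339, 259, 279 and 188 FPKM against 308, 202, 162 and 250 FPKM. Its ranges overlapped, and it was not called (0.21, adjusted p 0.511). The 2 genes are near-identical, so reads could be shared between them, and the split between them is uncertain to that extent. Mmp7, the protease that activates Paneth cell defensins and also a Wnt target, measured 674, 529, 590 and 415 FPKM against 3.09, 1.1, 7.8 and 1.3 FPKM (7.23, SE 0.42, adjusted p 2.24e-05). The alpha-defensin Defa24 measured 916, 456, 440 and 673 FPKM against 2.84, 2.54, 1.55 and 1.9 FPKM (7.55, adjusted p 7.41e-07). Defa5 and Defa22 rose to 25.4 to 52 and 22.6 to 39.7 FPKM from at most 0.269 and 0.517 FPKM. Alpha-defensin genes are close copies of one another, so the share of each is uncertain.

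Among the other antimicrobial genes some rose and some did not. Itln1, an intelectin lectin, measured 237, 173, 124 and 172 FPKM in tumors and 16.1, 2.2, 7.18 and 2.95 FPKM in normals (4.74, SE 0.49, adjusted p 0.000365). The secreted phospholipase Pla2g2a rose by 4.40, the protease inhibitor Slpi by 4.39 and the siderophore-binding Lcn2 by 3.83, each with every tumor above every normal. The lectin Reg3g was not called (3.67, adjusted p 0.0537) but was called without WT-old normal 1 (4.89, adjusted p 0.00803). Reg3b and Reg4 were not called (adjusted p 0.638 and 0.525), and their signs turned between the pairs of normals, from 3.75 against those numbered 2 to -1.58 against those numbered 1 for Reg3b and from -0.66 to 1.94 for Reg4. Pigr, the receptor that carries antibodies across the epithelium, fell by 1.43 (adjusted p 0.0399) with overlapping ranges, a call lost against either pair of normals and without tumor 1, 2 or 3, WT-young normal 2, WT-old normal 1 or WT-old normal 2 (adjusted p 0.0754 to 0.101). Ang4, an angiogenin of Paneth and goblet cells, measured 2050, 199, 301 and 139 FPKM in tumors and 748, 5.66, 324 and 25.8 FPKM in normals, and the normals split by their number. It was not called over the 4 normals (2.16, adjusted p 0.294), was called higher against the normals numbered 2 (4.76, adjusted p 0.023) and pointed lower against those numbered 1 (-0.44). Retnlb, a goblet cell antimicrobial, measured 229, 25.6, 41.1 and 8.95 FPKM against 845, 4.98, 530 and 3.74 FPKM. Its sign turned in the same way, from 2.91 against the normals numbered 2 to -4.06 (adjusted p 0.0329) against those numbered 1. Retnla, a related gene that is induced by type 2 cytokines and is also made by fat cells, fell to 0.161, 0.103, 0 and 0.144 FPKM from 16.7, 20.5, 4.77 and 2.3 FPKM (-3.07, adjusted p 0.00397). Adipocyte markers fell beside it, and their part was not tested.

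Some squamous keratins were also raised outside tumor 2: of 6 tested members of the squamous list 3 were called higher (Krt4, Krt13 and Krt15) and none lower. In 4 of the 6 every tumor lay above every normal, and in 1, which was not called, every tumor lay below. Of the 6, 2 (Krt4 and Krt15) passed the filter through the tumors alone and so had to differ. Of the other 4, 1 was higher. Krt13, of stratified squamous surfaces, measured 47.7, 140, 35.1 and 29.6 FPKM against 0.758, 1.12, 0.865 and 1.55 FPKM (4.68, SE 0.43, adjusted p 0.000228). Krt15 measured 20.7, 16.8, 14.1 and 8.52 FPKM against 0.0829 to 0.504 FPKM and rose by 3.55. Krt14 was higher in every tumor than in any normal, but with tumor 2 included it was not called (3.57, adjusted p 0.0519), and without tumor 2 it was (2.18, adjusted p 0.013). The basal factor Trp63 was 4.64 FPKM in tumor 2 and at most 0.0468 FPKM in the other libraries. Ppbp and Ltf, a platelet chemokine and an iron-binding protein of secretions and neutrophils, were also high in tumor 2 alone, at 288 and 215 FPKM against at most 4.77 and 3.29 FPKM in the other tumors.

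Proliferation genes rose moderately. Of 24 tested, 19 were called higher and none lower, with a median of 0.78, and 21 and 16 were called against the normals numbered 2 and 1. Without tumors 2 and 4 the number was 13. Rrm2, a subunit of the enzyme that makes deoxyribonucleotides, measured 22.2, 24.1, 22 and 16.7 FPKM in tumors and 7.2, 6.07, 9.09 and 6.83 FPKM in normals (1.42, SE 0.15, adjusted p 0.000393). Top2a, the DNA topoisomerase of dividing cells, rose by 1.29, the replication helicase subunit Mcm4 by 0.98 and the chromatin remodeller Hells by 0.95. Mki67, the common proliferation marker, measured 33.2, 29.3, 30.4 and 27.2 FPKM against 19.7, 14.8, 23.1 and 19.8 FPKM (0.62, adjusted p 0.0104). The groups did not overlap in any of these genes.

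Of 22 tested genes of ribosome and nucleotide synthesis 9 were called higher and 13 were not called, with a median of 0.39. The nucleolar protein genes Ncl and Ddx21 rose by 0.67 and 0.64 and the purine synthesis gene Gart by 0.46, and 1 member of the list was called without tumors 2 and 4 but 19 after scaling to a common sum. Among genes linked to colon tumors, 10 of 16 were called higher and 1 lower. In 3 of the 16, Cdkn2a among them, the filter was passed through the tumors alone. Of the other 13, 7 were higher and 1 lower. Cdkn2a, which encodes the p16 and p19ARF inhibitors, measured 45.6, 26.6, 20.5 and 18.6 FPKM in tumors and 0.0846, 0.0521, 0.26 and 0.534 FPKM in normals (4.48, SE 0.27, adjusted p 2.33e-05). Cemip, a hyaluronan-binding protein, rose by 2.24, the calcium-binding Tesc by 2.73 and the cystine transporter Slc7a11 by 1.75. Dpep1, a dipeptidase that is raised in many human colon tumors, was the exception, at 7.83, 5.63, 7.52 and 7.5 FPKM against 150, 56.4, 258 and 113 FPKM (-3.97, SE 0.39, adjusted p 0.000299).

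Targets of p53 were mixed: 8 of 22 were called higher and 3 lower, and 6 and 0 without tumors 2 and 4. Eda2r, a death receptor, measured 5.35, 4.03, 3.44 and 3.82 FPKM against 1.58, 0.639, 0.984 and 0.78 FPKM (1.38, adjusted p 0.000978). The apoptosis gene Bax rose by 0.74, Phlda3 by 1.63 and Trp53inp1 by 1.15, while Gadd45a fell by 1.02 and Sesn1 by 0.92. Cdkn1a, the p21 inhibitor, measured 112, 112, 133 and 147 FPKM against 69.1, 133, 110 and 120 FPKM and was not called (0.25, adjusted p 0.373). Trp53 itself measured 51.9, 52.2, 58 and 38.8 FPKM against 40.7, 25.4, 35.5 and 29.3 FPKM. It was called (0.61, adjusted p 0.0286) but not when any of tumors 1, 2 or 3, WT-young normal 2 or WT-old normal 2 was left out (adjusted p 0.0534 to 0.0824).

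Genes of mature absorptive colonocytes fell, with the level in normals depending on the pair. Of 31 tested, 16 were called lower and 1 higher, with a median of -1.32. Against the normals numbered 2, 13 were lower and 1 higher, and against those numbered 1, 12 and 3. Car4, a surface carbonic anhydrase of the distal colon, measured 14.5, 34.3, 37 and 154 FPKM in tumors and 239, 1136, 569 and 862 FPKM in normals (-3.84, SE 0.71, adjusted p 0.00456). Car2, the cytosolic form, measured 102, 184, 138 and 269 FPKM against 680, 1242, 930 and 1633 FPKM (-2.70, SE 0.34, adjusted p 0.000946). Guca2a, which encodes the hormone guanylin, measured 165, 202, 224 and 712 FPKM against 2868, 1258, 4420 and 2155 FPKM (-3.16, adjusted p 0.00261). Tumor 4 was nearest to the normals in all 3 genes. Vsig2, a surface immunoglobulin-domain protein, fell by 4.39 and the fatty acid carrier Fabp2 by 4.29, the latter over normals that ranged from 32 to 1017 FPKM. Clca4b, an epithelial gene of the chloride channel regulator family with close paralogs, was the member that rose, at 195, 159, 332 and 550 FPKM against 1.86, 5.33, 4.56 and 37.4 FPKM (5.13, SE 0.75, adjusted p 0.00167). Krt20, a keratin of the differentiated surface, measured 169, 242, 355 and 613 FPKM against 305, 504, 697 and 491 FPKM and was not called (-0.64, adjusted p 0.242). Epcam, common to all epithelial cells, differed by -0.02 (adjusted p 0.953) with a sign that turned with the scaling.

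Energy and detoxification genes fell beside the colonocyte genes. Of 28 tested genes of fatty acid oxidation and ketone synthesis, 20 were called lower and none higher, with a median of -0.95. Acads, which oxidises short-chain fatty acids such as the butyrate that feeds colonocytes, measured 24.6, 24.3, 31.1 and 32.3 FPKM in tumors and 88.3, 80.6, 158 and 91.7 FPKM in normals (-1.82, SE 0.22, adjusted p 0.000683). Ech1 fell by 1.44, the ketone body enzyme Bdh1 by 1.34 and Acat1 by 1.04. Of 24 respiratory chain and citric acid cycle genes, 18 were lower and none higher, with a median of -0.66. Cox6c, a subunit of cytochrome oxidase, measured 571, 547, 522 and 725 FPKM against 1186, 1067, 1402 and 1396 FPKM (-1.10, SE 0.15, adjusted p 0.00115), Cox5b fell by 1.06 and Sdhb by 0.96. Glycolysis and hypoxia genes showed no common shift, with 2 of 24 higher, 3 lower and a median of 0.10 that turned negative (-0.18) against the normals numbered 2, while 7 were higher and 2 lower against those numbered 1. Within that list Slc16a3, a lactate exporter, measured 26.4, 25.4, 37.2 and 19.5 FPKM against 1.25, 6.38, 2.08 and 4.09 FPKM (2.77, adjusted p 0.00104), and Pfkfb3, which speeds glycolysis, rose by 1.36.

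Xenobiotic metabolism genes were lower in 19 of 29 tested and higher in none, with a median of -1.87. Sult1a1, a sulfotransferase, measured 6.42, 17.2, 10.6 and 59.2 FPKM against 371, 282, 374 and 269 FPKM (-4.20, SE 0.56, adjusted p 0.00113). The normals lay close together here, so the choice of normals moved the value little (-3.98 and -4.41). Ces1f fell by 3.36, the epoxide hydrolase Ephx2 by 1.82, the glutathione transferase Gstm1 by 1.96 and the retinoic acid-forming Aldh1a1 by 3.92. Cyp2e1, the enzyme known for activating azoxymethane, was low throughout, at 0.411, 1.14, 0.312 and 0.33 FPKM in tumors and 9.62, 3.47, 2.28 and 2.92 FPKM in normals (-1.71, SE 0.36, adjusted p 0.00747). Adipocytes, which also express Cyp2e1, had markers that fell with it, and their part was not tested. Mgmt, which removes alkyl groups from guanine, measured 6.24, 6.22, 5.78 and 8.08 FPKM against 11.2, 7.7, 9.17 and 9.11 FPKM. Its small fall (-0.44, adjusted p 0.0388) lost the call in 15 of 25 alternatives, among them 6 of the 8 that left out a library (tumors 1, 2 and 3, WT-young normal 1 and both WT-old normals).

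Secretory cell genes fell as well. Of 21 tested goblet cell and mucus genes, 12 were called lower and 1 higher, with a median of -0.99. The number lower was 6 against the normals numbered 2, 13 against those numbered 1 and 8 without tumors 2 and 4. Klk1, a kallikrein protease, measured 142, 210, 312 and 457 FPKM in tumors and 3777, 2066, 2913 and 2614 FPKM in normals, 10.1-fold more in the normal means (-3.44, SE 0.35, adjusted p 0.000332). Creb3l1, a secretory pathway factor, measured 14, 13.3, 21.7 and 16.7 FPKM against 90.4, 63, 113 and 124 FPKM (-2.48, adjusted p 0.000245). Atoh1, the factor that commits crypt cells to secretory fates, fell by 1.80 and the endoplasmic reticulum stress sensor Ern2 by 0.99. Muc2, the main mucin of colon mucus, measured 224, 180, 336 and 278 FPKM against 3819, 297, 2829 and 675 FPKM, so that the lowest normal lay within the tumor range. Its call (-2.29, adjusted p 0.044) was lost without any one of the 4 tumors, WT-young normal 1 or WT-old normal 1 (adjusted p 0.0687 to 0.11).

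Genes of hormone-producing cells fell too: 13 of 16 tested enteroendocrine genes were lower and none higher, with a median of -1.56. Of the 16, 4 passed the filter through the normals alone, and 9 of the other 12 were lower. Scg5, a chaperone of hormone granules, measured 0.696, 0.547, 0.855 and 1.53 FPKM in tumors and 4.04, 4.43, 4.3 and 3.77 FPKM in normals (-1.45, SE 0.16, adjusted p 0.000525). Gcg, the precursor of glucagon-like peptides, measured 2.42, 5.28, 4.85 and 13 FPKM against 106, 28.2, 92.5 and 56.5 FPKM and fell by 3.31. Insl5, a hormone of distal colon cells, fell by 3.22, and Cpe, which is also expressed by neurons, by 2.97. In the small tuft cell list 1 of 7 tested members was higher and 2 lower, and 1 and 0 against the normals numbered 2. Chat, Gfi1b, Gnat3, Il25, Pou2f3 and Trpm5 of that list did not pass the filter, and each had its highest value in a normal. Gnat3 measured 0.0443 to 0.304 FPKM in tumors and 0.636 to 3.11 FPKM in normals, and Pou2f3 0.0624 to 0.168 and 0.302 to 1.52 FPKM. Avil, an actin-binding protein of tuft cells, measured 29.2, 42.1, 29.3 and 21.1 FPKM against 3.7, 0.609, 3.89 and 2.12 FPKM (3.22, adjusted p 0.000524), whereas Ltc4s, a leukotriene synthase of the same cells, fell by 0.95. Of the junction genes Cldn4 and Cldn15 moved in opposite directions. Cldn4, a sealing claudin, measured 227, 190, 232 and 179 FPKM against 8.14, 33.4, 10.6 and 12 FPKM (3.81, SE 0.37, adjusted p 0.00027). Cldn15, which forms cation pores, measured 9.3, 10.8, 12.3 and 25.5 FPKM against 209, 42.9, 199 and 107 FPKM (-3.04, SE 0.51, adjusted p 0.00304).

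The intestinal identity factors fell in the same tissue. Cdx1, a homeobox factor of intestinal epithelium, measured 46.1, 46.9, 54.7 and 58.8 FPKM in tumors and 144, 159, 216 and 216 FPKM in normals (-1.80, SE 0.16, adjusted p 0.000207). Its partner Cdx2 measured 3.95, 2.95, 6.95 and 18.3 FPKM against 68.4, 35.1, 135 and 51.7 FPKM, 9.02-fold lower in the tumor means (-3.14, SE 0.55, adjusted p 0.00349). Over the same libraries the Epcam ranges overlapped. In the list of Hox and position genes as a whole 3 of 20 tested were higher and 7 lower, but 0 and 8 against the normals numbered 2 and 8 and 5 against those numbered 1. Hoxd11, at 7.99, 6.71, 12.3 and 13.8 FPKM against 0.464, 8.01, 0.474 and 0.915 FPKM, was called (2.13, adjusted p 0.0202), but not against the normals numbered 2 (1.38, adjusted p 0.127) nor without tumor 3 or WT-old normal 1 (adjusted p 0.0582 and 0.0561).

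**Figure D3:**
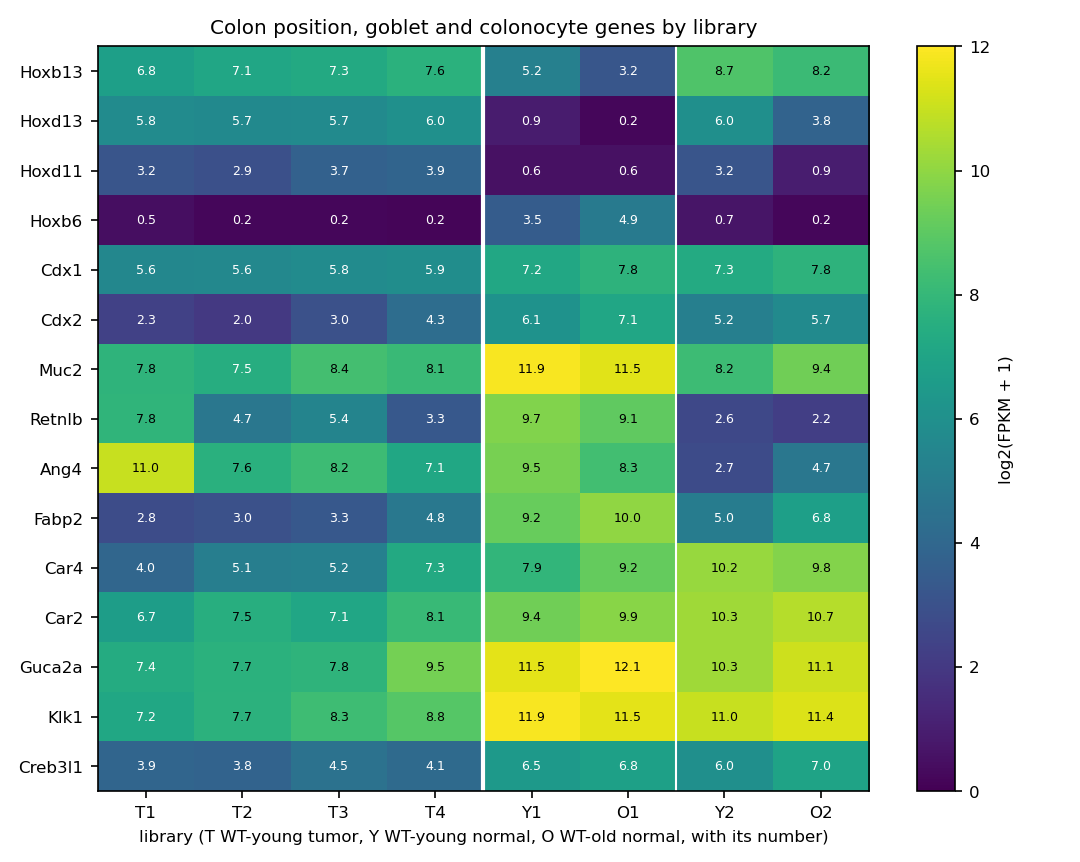
Log2(FPKM + 1) of colon position genes and of goblet and colonocyte genes, 1 column per library, tumors left of the thick line, normals numbered 1 between the lines and normals numbered 2 at the right. Hoxb13, Hoxd13, Hoxb6, Muc2, Retnlb, Ang4 and Fabp2 differ between the pairs of normals, while Cdx1, Klk1, Creb3l1 and Car2 are high in all 4.

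Genes of the muscle wall and its nerves were far lower in tumor pieces. Of 20 tested smooth muscle genes 17 were called lower and none higher, with a median of -2.34. Against the normals numbered 2 the number was 15, and against those numbered 1 it was 18. Des, the muscle intermediate filament, measured 9.14, 10, 5.47 and 7.94 FPKM in tumors and 722, 193, 284 and 105 FPKM in normals, and was 40-fold higher in the normal means (-4.83, SE 0.51, adjusted p 0.000393). Cnn1 (calponin) fell by 4.39, Synm (synemin) by 3.47 and Pgm5 by 3.11. Of 8 tested genes of enteric neurons, glia and pacemaker cells 6 fell. Of the 8, 2 passed the filter through the normals alone, and 4 of the other 6 were lower. Vip, a neuropeptide, measured 0.136, 1.72, 0.108 and 0.112 FPKM against 36.9, 10.2, 11.6 and 12 FPKM (-3.54, adjusted p 0.000869), and Prph, a neuronal filament, fell by 2.11. In the adipocyte and mesothelium list 4 of the 5 tested members passed the filter through the normals alone, so their direction was set by the filter, and 4 more did not pass it. Fabp4, a fatty acid carrier of fat cells, endothelium and macrophages, was the remaining member and fell by 2.09 (adjusted p 0.00852). Members under 1 FPKM in all tumors included Cfd (adipsin), at 0.0538, 0.0529, 0 and 0.0636 FPKM against 64.8, 16.1, 6.84 and 9.95 FPKM, Car3 (-3.30) and Retn (-2.10). How much muscle wall and fat each piece contained was not recorded in the labels.

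Fibroblast and endothelial genes showed no common shift. Of 20 tested fibroblast and collagen genes 1 was higher and 1 lower, and of 14 endothelial genes 1 was higher. Col1a1, a chain of type I collagen, measured 58.8, 22.3, 35.5 and 3.73 FPKM in tumors and 9.91, 17.6, 6.48 and 4.62 FPKM in normals. It was not called with all tumors (1.21, adjusted p 0.233) and was called without tumor 4 (1.95, adjusted p 0.014), and without tumors 2 and 4 the list had 8 members higher. Vim, the mesenchymal filament that leukocytes also express, measured 456, 355, 286 and 254 FPKM against 180, 117, 82.2 and 70.2 FPKM (1.64, adjusted p 0.00454). Lum, a collagen-binding proteoglycan, fell by 1.57 (adjusted p 0.0305), a call lost without tumor 1, 2 or 3, WT-young normal 2 or WT-old normal 1 (adjusted p 0.0508 to 0.0845). Angpt2, a factor of sprouting vessels, rose by 1.59.

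Matrix-degrading enzymes rose apart from that. Of 15 tested 9 were called higher and none lower, with a median of 1.57. Mmp10, a stromelysin, measured 139, 104, 89.7 and 26.1 FPKM in tumors and 1.33, 0.863, 1.17 and 1.81 FPKM in normals (5.10, SE 0.45, adjusted p 0.000193). Mmp13, a collagenase, measured 113, 61.1, 60.2 and 23.3 FPKM against 2.22, 0.937, 1.85 and 2.64 FPKM (4.33, adjusted p 0.000285). In both, tumor 4 was the lowest tumor and still stood well above the normals. Plat, the tissue plasminogen activator, rose by 2.92 and the macrophage elastase Mmp12 by 2.69.

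Inflammatory genes were higher across several myeloid programs. Of 18 tested neutrophil and acute inflammation genes 15 were called higher and none lower, with a median of 2.49 (5 of the 18 passed the filter through the tumors alone, and 10 of the other 13 were higher), and 14 and 15 against the normals numbered 2 and 1. S100a8, a subunit of the neutrophil protein calprotectin, measured 100, 209, 112 and 35.7 FPKM in tumors and 1.3, 0.948, 0.523 and 2.89 FPKM in normals (5.42, SE 0.50, adjusted p 0.000228), and its partner S100a9 rose by 5.45. Cxcl1, a chemokine that draws neutrophils, measured 17, 16.4, 15.9 and 8.29 FPKM against 0.33, 0.228, 0.101 and 1.09 FPKM (3.42, adjusted p 0.000108). Cxcl5 rose by 5.06 and the cytokine Tnf by 2.36. Among 20 tested macrophage genes 18 were higher and none lower, with a smaller median of 0.99. The number was 13 against the normals numbered 2, 14 against those numbered 1 and 13 without tumors 2 and 4, and the group ranges did not overlap in 12 of the 20. Tyrobp, a signalling adaptor of myeloid cells, measured 97.6, 95.5, 91.1 and 98 FPKM against 43.3, 29.7, 28.8 and 39.1 FPKM (1.43, SE 0.14, adjusted p 0.000298). The chemokines Ccl3 and Ccl4 each rose by 1.89 and the integrin Itgam by 1.33. Ptprc (CD45), carried by all leukocytes, measured 7.52, 7.32, 10.2 and 7.04 FPKM against 7.28, 3.02, 7.45 and 11.2 FPKM and was not called (0.22, adjusted p 0.598).

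Lymphocyte genes moved less. Of 16 tested T and NK cell genes 4 were called higher, with a median of 0.52, and 2 against the normals numbered 2 or without tumors 2 and 4. Zap70, the T cell receptor kinase, measured 4.58, 2.55, 4.04 and 3.19 FPKM against 0.989, 0.333, 0.818 and 1.14 FPKM (1.34, adjusted p 0.00175). The checkpoint ligand Cd274 (PD-L1) rose by 1.62, with tumor 4 highest at 20 FPKM, and the inhibitory receptor Ctla4 by 1.04, at 2.47 to 2.7 FPKM in tumors. Of 15 B and plasma cell genes 1 was higher and 1 lower, though 8 were lower against the normals numbered 1. Mast cell genes rose, 6 of 8 tested in a list shared with eosinophils, with a median of 1.96. Of the 8, 3 passed the filter through the tumors alone, and 3 of the other 5 were higher. Cma1, a mast cell chymase of a family with close copies, measured 15.5, 22.1, 23.2 and 42.8 FPKM against 0.957, 4.35, 0 and 5.9 FPKM (3.11, adjusted p 0.00524). The mast cell carboxypeptidase Cpa3 rose by 2.22, Mcpt4 by 1.69 and the tryptase Tpsb2 by 1.54.

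Interferon response genes rose nearly throughout. Of 33 tested genes 29 were called higher and none lower, with a median of 1.71 on the log2 scale beside 0.02 over all genes. The number was 23 against the normals numbered 2, 27 against those numbered 1 and 22 without tumors 2 and 4. Tgtp1, an interferon-gamma-induced GTPase, measured 25.6, 27.8, 23.2 and 24.6 FPKM in tumors and 1.06, 0.593, 0.842 and 1.11 FPKM in normals (3.80, SE 0.12, adjusted p 7.39e-07). The related GTPase Iigp1 measured 71, 60.1, 62.1 and 65.8 FPKM against 6.81, 3.1, 3.67 and 4.44 FPKM (3.62, adjusted p 1.29e-05). Ido1, which breaks down tryptophan, measured 68.3, 59.4, 76.3 and 117 FPKM against 2.79, 2.92, 5.6 and 4.05 FPKM (4.06, adjusted p 2.44e-05). Cxcl10, a chemokine for T cells, rose by 3.29, Igtp by 2.49 and the guanylate-binding proteins Gbp3, Gbp4, Gbp5 and Gbp7 by 2.52, 2.44, 1.73 and 1.83. Ifit1 and Ifit3, targets of type I interferon, rose by 1.66 and 1.21. Antigen presentation by MHC class I followed: 8 of 12 tested genes were higher and none lower. Tap1, the peptide transporter, measured 43, 44.2, 51.6 and 68.9 FPKM against 7.6, 10.9, 9.21 and 15.8 FPKM (2.18, adjusted p 0.000378). B2m, the light chain, measured 2046, 1886, 2148 and 2506 FPKM against 901, 612, 1224 and 984 FPKM (1.24, adjusted p 0.00297). The immunoproteasome genes Psmb8 and Psmb9 rose by 1.41 and 1.23. Of 11 MHC class II genes 3 were higher and 2 lower, 1 and 0 against the normals numbered 2, 6 and 0 with the age term, and 7 and 2 after scaling to a common sum. The ranges did not overlap in 1 of the 11. Their master regulator Ciita rose by 1.12.

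A promoter sequence was looked for in the interferon response genes called higher and was found in 15 of the 29. Interferon-activated STAT and IRF factors bind elements built on GAAA repeats, and GAAA followed after any 2 bases by GAAA (either strand, overlaps counted) was sought in the same RefSeq windows. Of the 29 genes called higher, 20 had windows, and 15 of these 20 held at least 1 match. By window, 15 of 23 (65.2%) held the letters, against 3.44% of all 32851 windows. The list was made of known interferon genes, and members not called were not searched. The share therefore describes the genes of the list and does not bear on the tumor-normal difference. The 5 genes with a match before the start and the smallest p in the tumor comparison are shown from 250 bases before the start to the last base before it, with the matching letters in capitals. They lie at chr11:48992247-48992496 (minus strand, Tgtp1), chr11:58199306-58199555 (plus, Igtp), chr3:142496684-142496933 (plus, Gbp5), chr3:142559794-142560043 (plus, Gbp3) and chr3:142530086-142530335 (plus, Gbp7) of GRCm38.p6.
Tgtp1: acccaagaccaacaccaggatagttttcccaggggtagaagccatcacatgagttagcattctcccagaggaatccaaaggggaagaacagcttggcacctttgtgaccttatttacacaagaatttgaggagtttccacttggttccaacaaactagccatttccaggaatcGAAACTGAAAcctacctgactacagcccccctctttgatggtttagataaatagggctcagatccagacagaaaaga
Igtp: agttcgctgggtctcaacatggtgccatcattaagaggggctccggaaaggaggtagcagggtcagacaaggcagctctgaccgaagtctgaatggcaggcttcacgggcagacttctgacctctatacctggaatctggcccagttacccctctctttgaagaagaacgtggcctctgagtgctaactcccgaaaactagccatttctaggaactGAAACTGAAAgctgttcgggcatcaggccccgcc
Gbp5: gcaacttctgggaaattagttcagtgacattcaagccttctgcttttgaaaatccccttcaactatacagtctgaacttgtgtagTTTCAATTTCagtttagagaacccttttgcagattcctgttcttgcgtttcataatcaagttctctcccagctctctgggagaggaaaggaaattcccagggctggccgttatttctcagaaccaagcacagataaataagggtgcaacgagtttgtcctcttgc
Gbp3: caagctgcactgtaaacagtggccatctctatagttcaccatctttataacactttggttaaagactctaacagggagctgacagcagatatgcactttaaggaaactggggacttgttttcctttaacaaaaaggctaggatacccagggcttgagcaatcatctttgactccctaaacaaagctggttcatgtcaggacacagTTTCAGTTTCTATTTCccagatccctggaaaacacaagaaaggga
Gbp7: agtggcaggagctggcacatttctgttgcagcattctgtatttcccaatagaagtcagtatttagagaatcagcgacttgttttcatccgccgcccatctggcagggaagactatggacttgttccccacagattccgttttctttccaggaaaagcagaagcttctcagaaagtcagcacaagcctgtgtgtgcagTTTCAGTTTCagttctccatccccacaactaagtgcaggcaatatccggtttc
The match begins 77 bases before the start in Tgtp1, 34 in Igtp, 165 in Gbp5 and 53 in Gbp7, and Gbp3 has overlapping matches that begin at 45 and 39. Where the capitals read TTTC first, the element lies on the opposite strand. The match describes sequence only. For comparison, the CArG box that serum response factor binds was found in 0 of 15 windows of the 13 smooth muscle genes that fell and had windows, and in 1.63% of all windows, which says only that these letters are not in these windows.

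**Figure D4:**
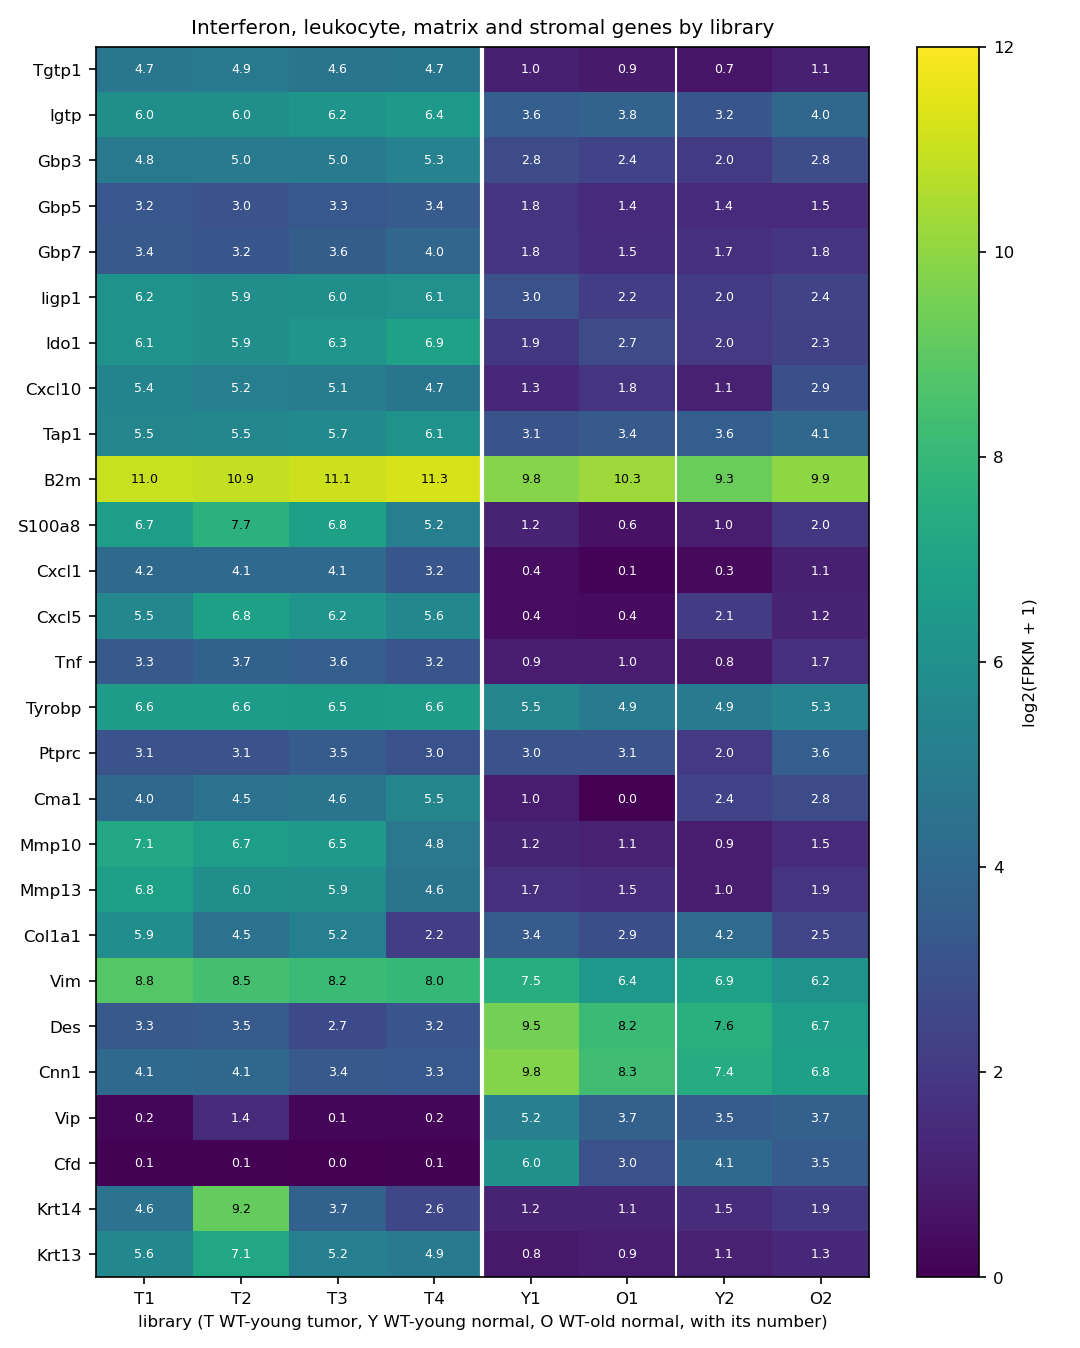
Log2(FPKM + 1) of interferon, leukocyte, matrix, stromal and squamous genes, 1 column per library, tumors left of the thick line. Interferon genes are even across the 4 tumors, S100a8 and Krt14 peak in tumor 2, Col1a1 and the matrix metalloproteases are lowest in tumor 4, and Des, Cnn1, Vip and Cfd are high only in normals.

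Growth factor, BMP, prostaglandin and clock genes showed selective changes. Of 10 tested EGF family genes 4 were higher (2 against the normals numbered 2), among them the ligand betacellulin, Btc, at 4.93, 5.35, 6.35 and 4.88 FPKM against 3.33, 1.85, 1.73 and 2.82 FPKM (0.91, adjusted p 0.00485). In the BMP and TGF-beta list 5 of 19 were higher and 4 lower, and 6 and 1 without tumors 2 and 4. Inhba, the activin A subunit, measured 9.7, 6.25, 6.24 and 1.84 FPKM against 0.543, 0.706, 0.32 and 0.2 FPKM (2.14, adjusted p 0.00318). The ligand Bmp7 rose by 1.51 and the target genes Id2 and Id3 by 1.22 and 0.93. Bmp3 fell by 1.83 and the BMP antagonist Chrdl1 by 1.63, in the same direction as the muscle markers. Of 12 prostaglandin genes 2 were higher and 3 lower. In 1 of the 12 the filter was passed through the tumors alone, and of the other 11, 1 was higher and 3 lower. Hpgd, which degrades prostaglandins, measured 31, 49.9, 31.8 and 65.5 FPKM against 108, 138, 192 and 107 FPKM (-1.62, adjusted p 0.00341). Ptgs2, the inducible cyclooxygenase, measured 5.86, 6.66, 8.44 and 1.94 FPKM against 1.65, 2.23, 0.789 and 1.51 FPKM, with tumor 4 inside the normal range. Its call (1.31, adjusted p 0.0217) was lost without tumor 1, 2 or 3 or WT-old normal 1 (adjusted p 0.0586 to 0.0629). Ptgds, a prostaglandin D synthase, rose by 1.33. Of 16 clock genes 8 were lower and 2 higher. The lower calls rested on the choice of normals: 8 were lower and 0 higher against those numbered 2, but 2 lower and 3 higher against those numbered 1, and 4 lower and 2 higher with the age term. Dbp, an output gene of the clock, measured 9.67, 11.3, 5.28 and 5.31 FPKM against 33.2, 54.8, 35.1 and 37.7 FPKM (-2.25, SE 0.26, adjusted p 0.000613), and Ciart fell by 1.60. The time of day at collection is not given in the sources used here. Of 11 immediate early genes, which respond within minutes to handling, 3 were higher, among them Ier3 (2.01) and Jun (0.82), but 1 was higher and 4 lower against the normals numbered 2, and 6 higher and 0 lower against those numbered 1.

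Maf, the gene named by the genotype label of the series, was low in both tissues at 1.63 to 2.26 FPKM in tumors and 1.37 to 2.82 FPKM in normals and was not called (-0.13, adjusted p 0.586). Neat1, a nuclear-retained RNA, was not called either (0.11, adjusted p 0.843), with WT-young normal 2 at 651 FPKM and the other 7 libraries at 181 to 328 FPKM.

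**Figure D5:**
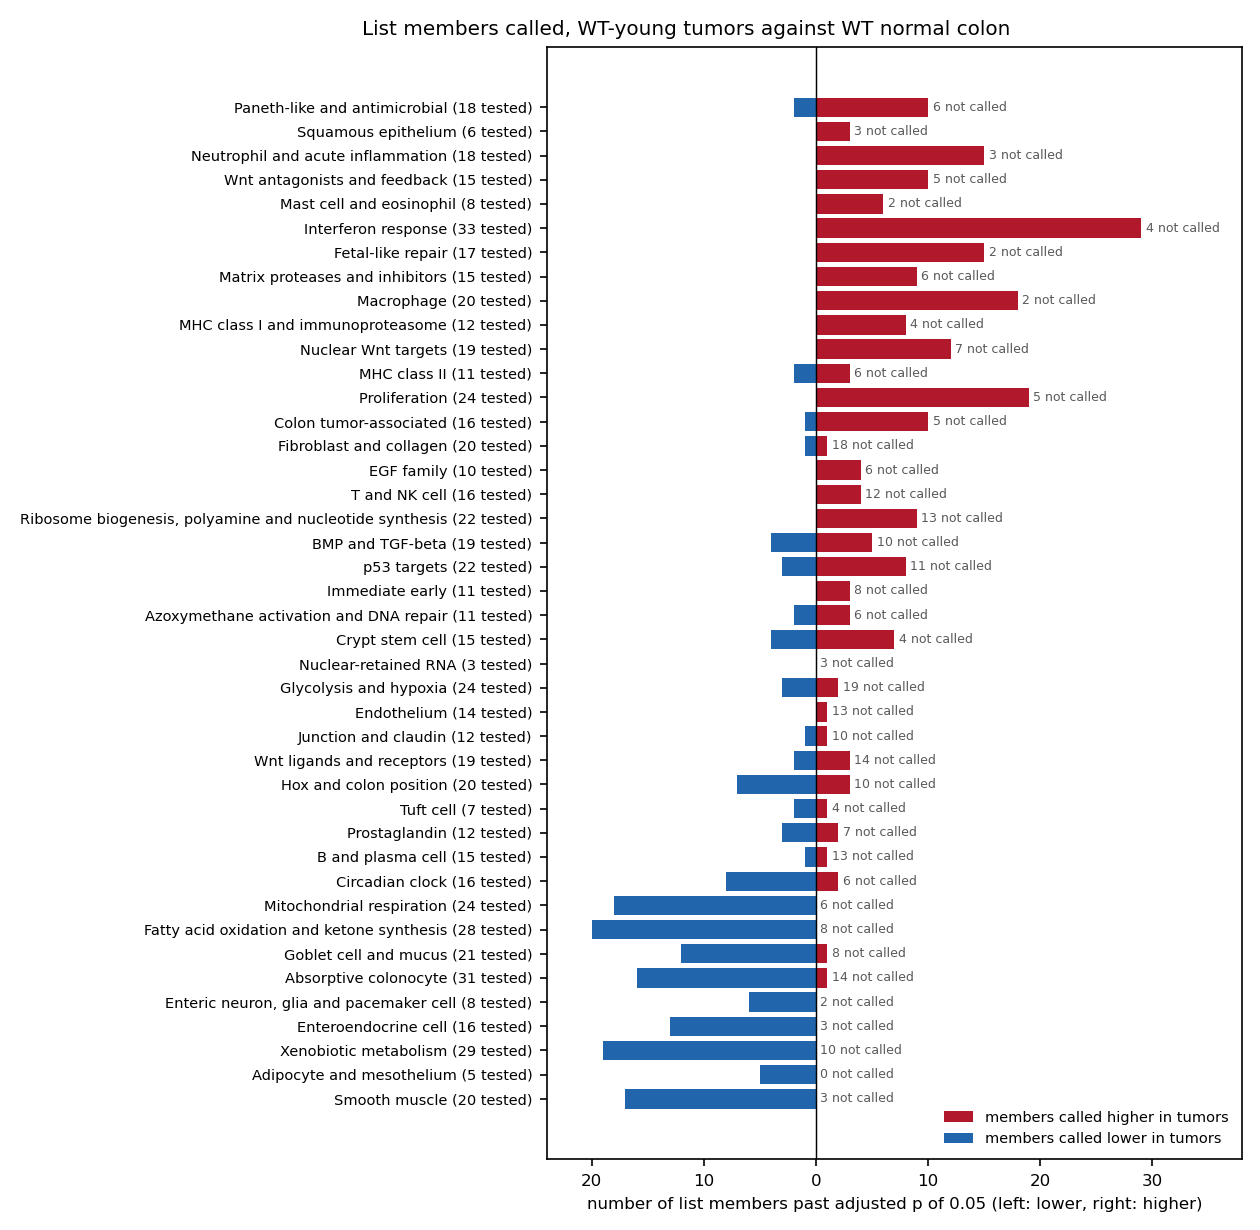
Number of members of each of the 42 gene lists called higher (right) or lower (left) in the tumors, with the number not called, lists ordered by the median log2 difference of their tested members. Paneth-like, squamous, neutrophil and Wnt feedback lists stand at the top, with the interferon list giving the longest bar at 29, and xenobiotic, adipocyte and smooth muscle lists at the bottom.

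The reference joined normals of both ages, so these were compared in the same libraries. No gene was called between the 2 WT-old and the 2 WT-young normals (limma, 0.0% of 12782), and 831 had an unadjusted p below 0.05. The smallest p-values belonged, by a choice made after seeing them, to Cry1, a clock repressor at 7.95 against 3.19 FPKM (1.09, SE 0.13, adjusted p 0.272), and Retnla, at 3.53 against 18.6 FPKM (-2.16, SE 0.26, adjusted p 0.272). With 2 libraries in each age and a split by number within both, the comparison had few libraries to detect an age difference. Its fit also took its spread from the 4 tumors. Against the WT-young normals alone, 2550 genes were called.

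Whether the tumor-normal difference was particular to wild-type mice was tested by its interaction with the KO label over the 23 libraries other than the WT-old tumor. No gene was called (limma, 0.0% of 13749), and 917 had an unadjusted p below 0.05. The KO arm of this test pooled the heterozygous and homozygous libraries. With the homozygous KO-8-homo as the only KO arm 8 genes were called, and with the heterozygous libraries alone 0. Hells had one of the smallest p-values: it rose in WT-young tumors, from 5.01 to 10.6 FPKM, and stood at 8.93 in KO normals and 9.86 FPKM in KO tumors (interaction -0.83, SE 0.17, adjusted p 0.415). Cenpp, a centromere protein gene, gave -1.23 (SE 0.24, adjusted p 0.415). Set side by side, Notum differed by 5.73 in wild-type and 5.25 in KO tissue, Lgr5 by 2.53 and 2.69, Cdx1 by -1.80 and -1.74, and Krt36 by 6.73 and 3.54 (interaction -3.19, SE 0.97, adjusted p 0.6).

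The WT-old tumor was a single library, so no test applies. It measured 0.222 FPKM of Notum, 0.87 FPKM of Mt4, 2.29 FPKM of Wif1, 3.96 FPKM of Axin2 and 0.609 FPKM of Lgr5, each below the lowest WT-young tumor. In this library Notum and Mt4 lay within the range of the wild-type normals, Axin2 and Lgr5 below it and Wif1 above it. Des was 250 FPKM there and Ptprc 113 FPKM, against at most 11.2 FPKM of Ptprc in the other wild-type libraries. Cdx1 at 47.8 FPKM and Klk1 at 439 FPKM lay within the range of the WT-young tumors.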

How the data were processed

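Polyadenylated RNA of colorectal tissue was sequenced from stranded libraries, per the labels' protocols. The submitters' processing notes name TopHat2 2.1.1, Bowtie2 2.2.8, SAMtools 0.1.18, Cuffdiff 2.2.1 and the build mm10. The authors deposited FPKM per gene and library, with no read counts, so absolute depth is unknown and no counting interval is given. The table of 24346 symbols was reduced to the 12782 with at least 1 FPKM in at least 4 of the 8 libraries. Values were transformed as log2(FPKM + 1) and fitted with limma 3.58.1 (trend, R 4.3.3), with Benjamini-Hochberg adjustment over all genes tested. The age comparison contrasted the 4 normals in a fit of all 8 libraries, so its spread came in part from the tumors. The interaction used all libraries but the WT-old tumor. Tables were made with Python 3.11.15, pandas 2.3.3, numpy 2.4.6, scipy 1.17.1 and matplotlib 3.10.9. On simulated data with 200 changed genes of 12782, in 20 runs, 66.9% of log2 changes of 1 and 91.6% of changes of 2 were recovered, and 5.82% of calls were false. The simulated noise was independent between genes and libraries, without the split of the normals by number. Far fewer genes were changed than the 34.1% called here, so these rates do not carry over to the real comparison.

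The libraries, the 42 gene lists (830 genes, 827 in the files, 701 tested) and the tests were chosen with earlier results of these data known. Genes were named by rule: 13 set by name, the 12 largest rises and falls, up to 4 members per list and direction by smallest p and up to 2 not called with the highest mean, and genes with the widest range over the tumors. Col1a1, Cxcl10, Dkk2, Gbp3, Gbp5, Gbp7, Ifit1, Ifit3, Igtp, Itln1, Lcn2, Lyz2, Muc2, Nkd1, Pla2g2a, Reg3b, Reg3g, Slpi and Tnfrsf19 lie outside that rule and were picked with their values in view. Some genes are not reported here. Promoter sequences are from RefSeq (GRCm38.p6). Alternatives changed the pseudocount, filter, scaling, age term, reference normals, libraries and model.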

Additional observations from a re-analysis of the deposited data

Results flagged for a closer look

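Among 390 groups of 4 libraries (195 genes in tumors and in normals), 25 held 1 library far from the other 3, by Dixon's 95% criterion on the gap to its neighbour, and 17 of the 25 were in tumors. Chance gives about 1 in 20 such groups, and genes of 1 library are not independent. Tumor 3 was the lowest of its group for Cfd at 0 FPKM (others 0.0529 to 0.0636 FPKM). Tumor 2 was the lowest of its group for Dpep1 at 5.63 FPKM (others 7.5 to 7.83 FPKM). Tumor 4 was the lowest of its group for Lef1 at 2.89 FPKM (others 4.83 to 5.28 FPKM), Mcm4 at 16.7 FPKM (others 19.5 to 20.1 FPKM), Cxcl1 at 8.29 FPKM (others 15.9 to 17 FPKM) and Ier3 at 25 FPKM (others 52.5 to 56.9 FPKM). Tumor 4 was the highest of its group for Acat1 at 42.5 FPKM (others 29.7 to 31.2 FPKM), Sdhb at 183 FPKM (others 132 to 139 FPKM), Ephx2 at 5.22 FPKM (others 3.03 to 3.23 FPKM), Car3 at 0.762 FPKM (others 0.288 to 0.339 FPKM) and Psmb9 at 107 FPKM (others 83.5 to 85.8 FPKM). WT-young normal 1 was the highest of its group for Pfkfb3 at 3.88 FPKM (others 1.97 to 2.14 FPKM) and Vip at 36.9 FPKM (others 10.2 to 12 FPKM). WT-young normal 2 was the lowest of its group for Gstm1 at 217 FPKM (others 353 to 389 FPKM). Tumor 2 was the highest of its group for Cyp2e1 at 1.14 FPKM (others 0.312 to 0.411 FPKM), Vip at 1.72 FPKM (others 0.108 to 0.136 FPKM), Ciart at 7.004 FPKM (others 3.25 to 3.47 FPKM) and Ltf at 215 FPKM (others 1.65 to 3.29 FPKM). Tumor 3 was the highest of its group for Ctla4 at 2.7 FPKM (others 2.47 to 2.51 FPKM). WT-old normal 2 was the highest of its group for Psmb9 at 52.1 FPKM (others 33.2 to 33.9 FPKM). WT-old normal 2 was the lowest of its group for Bmp7 at 1.12 FPKM (others 3.01 to 3.24 FPKM). Tumor 1 was the highest of its group for Ptgds at 2.36 FPKM (others 1.5 to 1.54 FPKM). WT-young normal 2 was the highest of its group for Hoxd11 at 8.01 FPKM (others 0.464 to 0.915 FPKM) and Neat1 at 651 FPKM (others 181 to 222 FPKM). WT-young normal 1 was also the highest normal for Lcn2 at 9.55 FPKM (others 2.24 to 2.71 FPKM).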

How the results depend on the processing

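The number of genes called in the tumor comparison was 4362, and it was 2858 with an age term, 2550 against the WT-young normals alone, 2694 without tumors 2 and 4, and 1479 when a log2 change of at least 1 was also required. The age term and the WT-young normals alone share the same reference libraries and differ in the spread used. Leaving out 1 library at a time gave 2934 to 4477. The replicate block gave 3175, and 0 for the age comparison and 0 for the interaction. Deviations of same-numbered tumors and normals correlated at 0.38, 0.23, -0.17 and -0.08, and those of same-numbered normals of both ages at 0.53. The number thus went with a shared split among the normals but not, in all pairs, between tumors and normals, so it was not taken to pair tumors with normals. With the replicate block 2 ribosome genes, 12 macrophage genes and 0 MHC class II genes were higher. The interaction count of 0 became 8 with KO-8-homo as the only KO arm. The age comparison stayed at 0 in the alternatives run. Normals by number and tumors 2 and 4 together were alternatives chosen after seeing the data. The causes were not tested.

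Signs turned for 10 genes, none of them called. Ang4 was -0.44 against the normals numbered 1, and Cdkn1a -0.016 against those numbered 2. Epcam was 0.26 with sum scaling, 0.46 with quantile normalization, 0.085 with the age term, 0.085 against WT-young normals alone, 0.18 against the normals numbered 1, and -0.16 to 0.062 without 1 library. Reg3b was -0.18 against WT-old normals, -1.58 against the normals numbered 1 and -0.0088 to 2.61 without 1 library, and Reg4 was -0.66 against the normals numbered 2. Hoxb13 was -0.16 to 1.66 without 1 library and -1.24 against the normals numbered 2. Maf was 0.072 with sum scaling, 0.12 against WT-old normals and 0.17 with the WT-old tumor added. Neat1 was -0.27 with the age term, -0.27 against WT-young normals, -0.071 with the replicate block, -0.41 against the normals numbered 2, and -0.066 to 0.55 without 1 library. Ptprc was -0.18 against WT-old normals and -0.086 to 0.45 without 1 library. Retnlb was 0.39 with the replicate block, 2.91 against the normals numbered 2, 0.72 without tumors 2 and 4, and -1.80 to 0.70 without 1 library. Of list medians larger than the spread of their list within groups, that of the crypt stem cell list was -0.082 with the WT-old tumor added, and that of the BMP and TGF-beta list -0.044 with the age term and -0.044 against WT-young normals. Smaller medians also turned, such as endothelium (0.02, and -0.33 against the normals numbered 1), Hox and colon position (-0.11 and 0.18), junction (-0.03 and 0.19) and Wnt ligands (-0.08 and 0.10), and nuclear-retained RNA (0.11, and -0.41 against the normals numbered 2) and tuft cell (-0.13 and 0.07).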
